A study of Rattus norvegicus with 18 samples.

Results

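The genes described here are 9 members of the antioxidant and glutathione programme that the transcription factor NRF2 (gene Nfe2l2) is known to control: Slc7a11, Gclc, Gclm, Nqo1, Srxn1, Txnrd1, Ephx1, Me1 and Hmox1. They were chosen by name, as 9 of the 15645 rat genes that probes of the array could be matched to, and each was read from the probe with the highest mean signal over all arrays. Of these, 8 were among the 10914 genes that entered the tests. The exception was Gclm, whose only probe was not well above background (the scanner software's own flag) on any of the 18 arrays, so that no level or change of this gene is given.

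Livers of 18 rats were studied, all F344 males that arrived when 5 weeks old and had 1 week on basal diet before treatment, with RNA of each liver on 1 one-colour Agilent array. DEN (in this field diethylnitrosamine, an alkylating liver carcinogen) was given at 4 mg/kg in saline, and CCl4 (carbon tetrachloride, a liver toxicant that is not classed as genotoxic) in corn oil at 100 mg/kg. Groups of 3 rats per agent and time were gavaged every day, in 5 mL/kg, for 28 or 84 days. Control rats, 3 at each time, are titled vehicle in one label and described as untreated on basal diet in another, so whether they were gavaged, and with which vehicle, is not given. The doses and the vehicles of the agents differ. Nothing else about the rats (genotype, diet) differed between the groups as far as the labels say, and the study's title names genes that are methylated and silenced by carcinogens without genotoxicity as its subject.

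In resting cells NRF2 is bound by KEAP1, an adaptor of the CUL3 ubiquitin ligase, and is degraded. Electrophiles and oxidants modify cysteines of KEAP1, NRF2 then accumulates, pairs with a small MAF protein (MAFF, MAFG or MAFK) and binds antioxidant response elements in its target genes, from which the repressor BACH1 can keep it away. The targets supply glutathione (cystine uptake by SLC7A11, then the rate-limiting ligation of glutamate and cysteine by the catalytic subunit GCLC with its modifier GCLM), reduce quinones (NQO1), repair oxidised peroxiredoxins (SRXN1), keep thioredoxin reduced (TXNRD1), hydrolyse epoxides (EPHX1), make NADPH (ME1) and degrade haem (HMOX1). In rat liver several of these enzymes are long known as markers of the altered hepatocyte foci that carcinogens produce.

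All values below are log2 signals, that is log2 of the scanner's processed signal minus the 75th percentile of the same array, and a difference of 1 is a doubling. A gene is said to have risen or fallen where limma's test, adjusted by the Benjamini-Hochberg method over all 10914 genes, gave an adjusted p under 0.05. Between 47.2% and 57.0% of probes were well above background on an array, and the signal at the 75th percentile was 169.8 on the dimmest and 325 on the brightest array. Replicate arrays of a group correlated at 0.976 to 0.996 over genes. The third CCl4 array of day 28 sat on the slide of the day 84 controls and not on that of its own controls, 2 of the 3 CCl4 arrays of day 84 sat on a further slide, and all DEN and control arrays of a day shared a slide. Control arrays of the different days lay on different slides, so day and slide cannot be told apart in the controls. On the first principal component the second CCl4 array of day 28 stood apart from the other two of its group (75.7 against 38.1 and 25.4). Without it, the same number of the 8 genes, 4, rose with CCl4 at day 28. Scaling to 7 spiked-in control probes in place of the 75th percentile would add a constant to every gene, 0.40 and 0.71 for DEN at day 28 and day 84 and 0.80 and 0.54 for CCl4, so that falls smaller than these change sign. The share of called genes that were higher would then be 98.1%, 96.4%, 94.2% and 88.7% in the same order, against 52.1%, 40.9%, 43.7% and 43.5% as scaled here (65.0%, 49.0%, 52.7% and 51.0% with quantile normalization). All 6 hepatocyte markers examined (Alb, Ttr, Apoa1, Tf, Hnf4a and Cps1) were well above background on all 18 arrays.

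RefSeq windows around annotated start sites of the rat genome (build GRCr8), from 250 bases before to 50 bases after the start, were at hand for 8 of the 9 genes (10 windows). They were searched on both strands for TGACNNNGC, the core of the antioxidant response element, and for TGANTCAGC, a MAF recognition element with which it overlaps. The first was present in 12.1% of 33469 rat windows, the second in 1.11% and either in 12.7%. Counted by gene, 13.8% of 27457 rat genes had either in at least 1 window. Of the 8 genes with a window, 5 had a match: Gclm, Txnrd1, Srxn1, Ephx1 and Me1. The 4 of these that were tested are printed because they carry the motif and rose together with DEN at day 84, and Slc7a11 is printed as the gene that went from below background to a bright signal there and has no such letters in its window. Capitals mark the match, all windows are read 5′ to 3′ along the gene's own strand, and for Txnrd1 and Ephx1 the window is the second of the 2 listed.
Srxn1 (GRCr8 chr3:161064562-161064861, plus strand): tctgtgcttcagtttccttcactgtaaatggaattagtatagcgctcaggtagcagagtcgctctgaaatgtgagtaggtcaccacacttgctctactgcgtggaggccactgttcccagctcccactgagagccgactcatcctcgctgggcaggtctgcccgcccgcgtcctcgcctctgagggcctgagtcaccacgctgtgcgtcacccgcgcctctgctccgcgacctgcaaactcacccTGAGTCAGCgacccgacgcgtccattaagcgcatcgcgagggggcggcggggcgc
Ephx1 (GRCr8 chr13:95263068-95263367, minus strand): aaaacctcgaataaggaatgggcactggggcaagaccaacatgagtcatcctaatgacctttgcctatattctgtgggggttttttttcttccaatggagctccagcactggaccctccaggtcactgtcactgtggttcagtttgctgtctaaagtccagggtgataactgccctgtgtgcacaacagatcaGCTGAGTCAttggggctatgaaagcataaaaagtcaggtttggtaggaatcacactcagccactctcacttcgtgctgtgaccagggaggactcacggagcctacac
Txnrd1 (GRCr8 chr7:22755855-22756154, minus strand): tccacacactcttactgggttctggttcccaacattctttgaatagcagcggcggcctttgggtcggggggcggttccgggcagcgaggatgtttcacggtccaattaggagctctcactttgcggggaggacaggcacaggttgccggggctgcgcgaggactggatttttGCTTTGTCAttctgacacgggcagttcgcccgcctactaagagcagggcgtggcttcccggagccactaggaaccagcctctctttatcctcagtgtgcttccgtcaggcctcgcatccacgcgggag
Me1 (GRCr8 chr8:96540195-96540494, minus strand): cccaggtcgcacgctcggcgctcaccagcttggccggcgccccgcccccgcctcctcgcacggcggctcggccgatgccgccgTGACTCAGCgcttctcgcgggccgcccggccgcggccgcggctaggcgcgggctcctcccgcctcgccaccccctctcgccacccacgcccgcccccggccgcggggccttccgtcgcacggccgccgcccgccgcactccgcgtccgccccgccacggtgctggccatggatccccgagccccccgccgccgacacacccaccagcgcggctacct
Slc7a11 (GRCr8 chr2:136668215-136668514, minus strand): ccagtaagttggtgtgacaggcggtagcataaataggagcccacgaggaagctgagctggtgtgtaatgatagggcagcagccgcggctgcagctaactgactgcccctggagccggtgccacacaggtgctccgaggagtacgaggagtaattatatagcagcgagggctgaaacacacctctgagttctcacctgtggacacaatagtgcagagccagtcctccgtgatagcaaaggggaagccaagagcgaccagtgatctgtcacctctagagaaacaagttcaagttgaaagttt
Counting the first base of the transcript as 0, the match began at -5 in Srxn1, at -57 in Ephx1, at -78 in Txnrd1 and at -167 in Me1. Those of Ephx1 and Me1 met both motifs, that of Srxn1 only the MAF recognition element, and that of Txnrd1 only the antioxidant response element. The windows of Nqo1, Gclc and Slc7a11 and the first windows of Txnrd1 and Ephx1 held neither string. Elements further from the start were not searched, a match is no evidence of binding, and its absence says nothing of the factor.

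**Figure D1:**
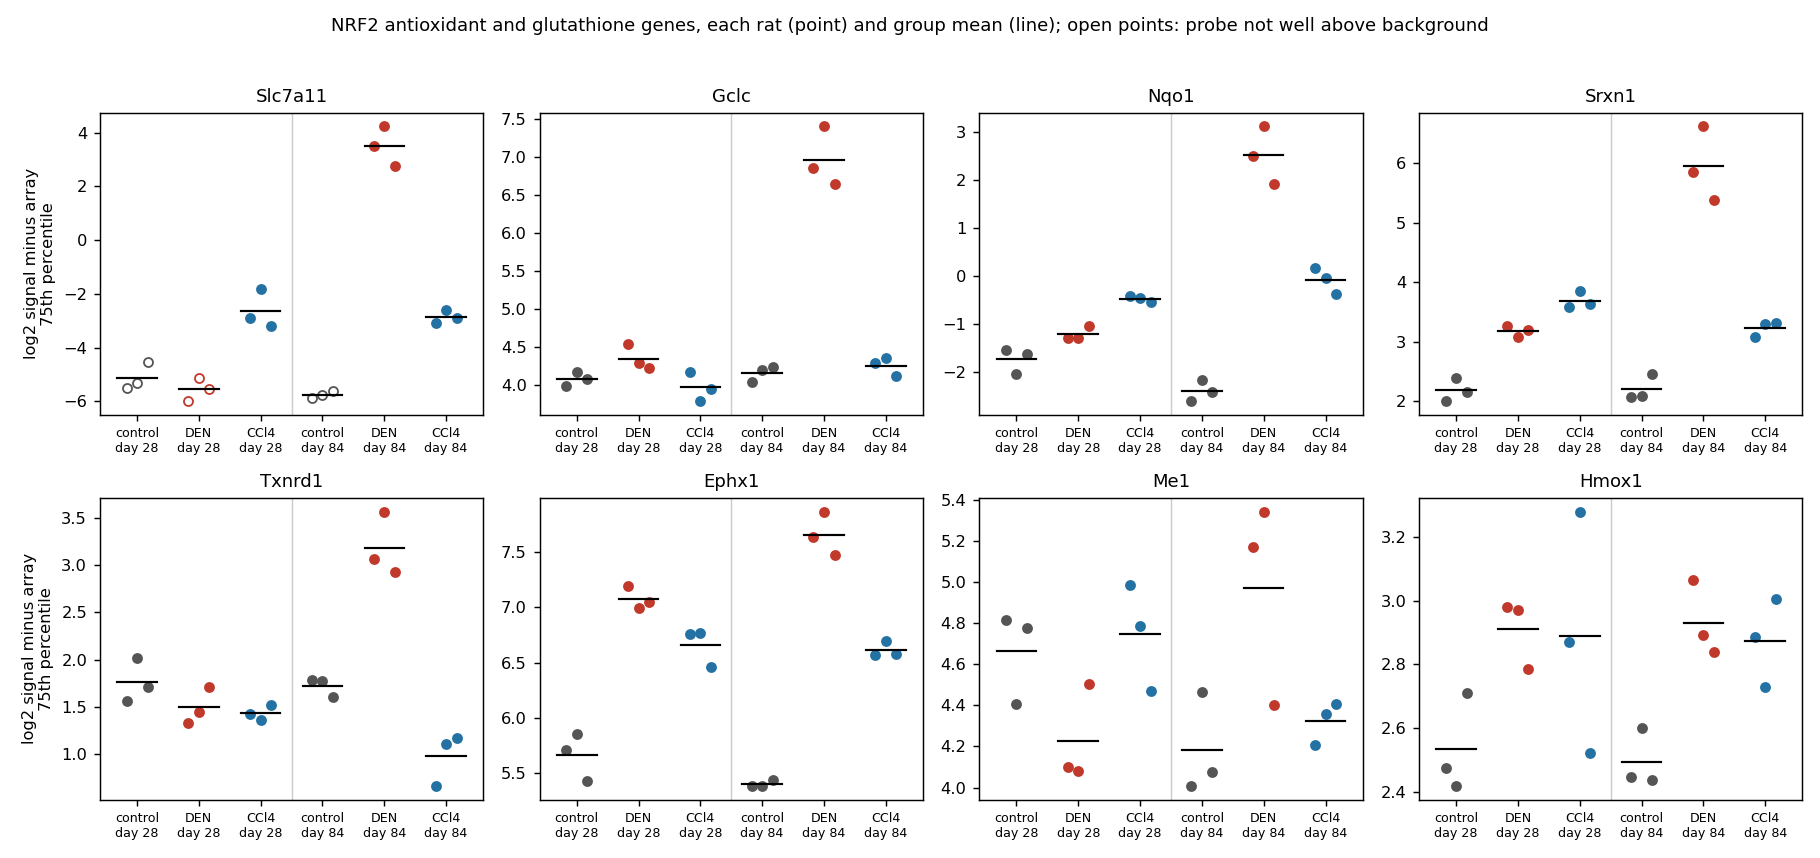
Log2 signal (log2 processed signal minus the array's 75th percentile, y axis, its own range in each panel) of the 8 genes tested in each of 6 groups, with 1 point per rat, a line at the group mean and open points where the probe was not well above background. The 3 DEN livers of day 84 lie above every other liver for Slc7a11, Gclc, Nqo1, Srxn1, Txnrd1 and Ephx1 but not for Me1 and Hmox1.

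DEN at day 84 raised all 8 genes tested, against 21.6% of all genes called higher in that comparison (31.1% were called lower, 52.7% in either direction). The median difference of the 8 was 2.53, against -0.08 over all genes, and stayed at 2.53 with Slc7a11 at its lower bound. Slc7a11 passed the filter only through treated groups in which it was bright, so its rises are no independent support in these counts. The other genes tested were well above background in every liver. In 7 of the 8 every DEN liver was above every control liver, the exception being Me1. How many of all genes separated in this way was not counted. At day 28 DEN had raised only Srxn1 and Ephx1, 2 of 8, beside 7.82% of genes called higher and 7.19% lower (15% in either direction), with a median of 0.32 over the 8 genes (0.38 without Slc7a11, which was dim in both groups) and -0.04 over all. CCl4 raised 4 of 8 at day 28 (26.1% of genes higher, 33.6% lower, 59.7% in all), namely Nqo1, Slc7a11, Srxn1 and Ephx1, with a median of 0.68 (0.65 with Slc7a11 at its bound) against -0.06. At day 84 CCl4 raised those 4 and Hmox1 and lowered Txnrd1, 5 higher and 1 lower (28% and 36.3% of genes, 64.3% in all), with a median of 0.70 (0.64 with Slc7a11 at its bound) against -0.10. With spike-in scaling 5 and 8 rose with DEN and 8 and 7 with CCl4 at day 28 and day 84, and none fell. That scaling called 3540 and 7832 of all 10914 genes with DEN and 8609 and 6514 with CCl4, 88.7% to 98.1% of them higher. The DEN and the CCl4 comparison of a day share their 3 control livers. Because these are whole-liver samples, fewer cells of a type and less RNA per cell cannot be told apart.

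**Figure D2:**
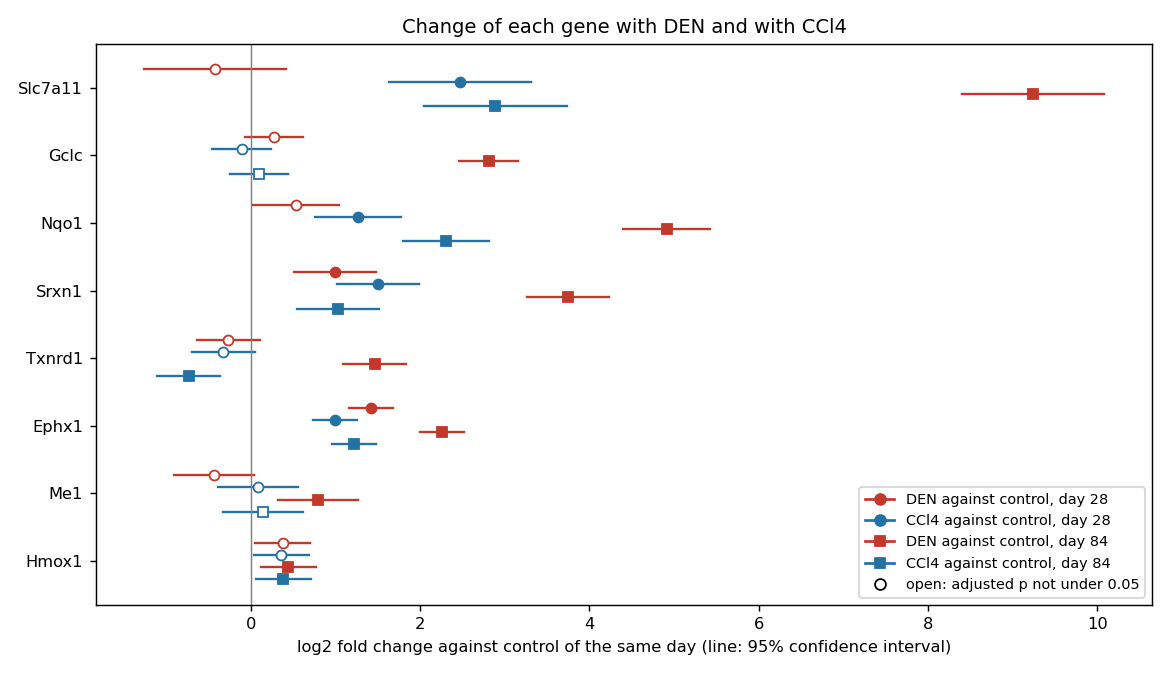
Log2 fold change of each gene (x axis) against the control livers of the same day, for DEN (red) and CCl4 (blue) at day 28 (circles) and day 84 (squares); lines are 95% confidence intervals from the fit and open symbols mark an adjusted p not under 0.05. With the percentile scaling plotted, the DEN value of day 84 is the highest of the 4 for each gene, from 0.44 for Hmox1 to 9.24 for Slc7a11, whose control level was below background, and the intervals of the 4 Hmox1 values overlap.

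Slc7a11, the cystine importer that feeds glutathione synthesis, went from a signal below background to a bright one. At day 28 its log2 signal was -5.50, -5.32 and -4.53 in controls, -5.98, -5.13 and -5.53 with DEN and -2.90, -1.83 and -3.21 with CCl4. At day 84 it was -5.87, -5.75 and -5.63 in controls, 3.50, 4.23 and 2.75 with DEN and -3.10, -2.60 and -2.89 with CCl4. The probe was not well above background in any control liver or in the DEN livers of day 28, and it was in all 9 others. It entered the tests only through the treated groups of those 9 livers. Against controls, whose own level is known only to lie below a bound, DEN at day 84 gave at least 152.8-fold more signal (fitted difference 9.24 ± 0.39 SE, group means 3.49 and -5.75, limma adjusted p = 1.62e-09). The bound sets the mean of the bright group against, on each dim array, the lowest signal that any probe well above background had there, or the dim probe's own signal if that is higher.
CCl4 livers read at least 1.93-fold more than controls at day 28 (adjusted p = 0.000111) and at least 1.87-fold more at day 84 (adjusted p = 2.54e-05), with no overlap between groups. These CCl4 rises rest on a single probe. The 2 other probes of Slc7a11 were well above background only in the 3 DEN livers of day 84, and give no fold between CCl4 and control livers, which were dim on both. With normexp background correction the CCl4 differences of the probe used were 0.14 (adjusted p = 0.617) and 0.11 (adjusted p = 0.691). That setting adds an offset of 50 to every signal, which shrinks differences between dim signals. These 2 values therefore do not decide whether CCl4 raised Slc7a11. The CCl4 livers of the different days overlapped, and the DEN livers of day 28 overlapped each control group, in all of which the probe was below background and values have no order. DEN at day 84 exceeded CCl4 at day 84 by 81.9-fold (a difference of -6.36 ± 0.39 for CCl4 minus DEN, adjusted p = 1.41e-07), where both were measured.

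**Figure D3:**
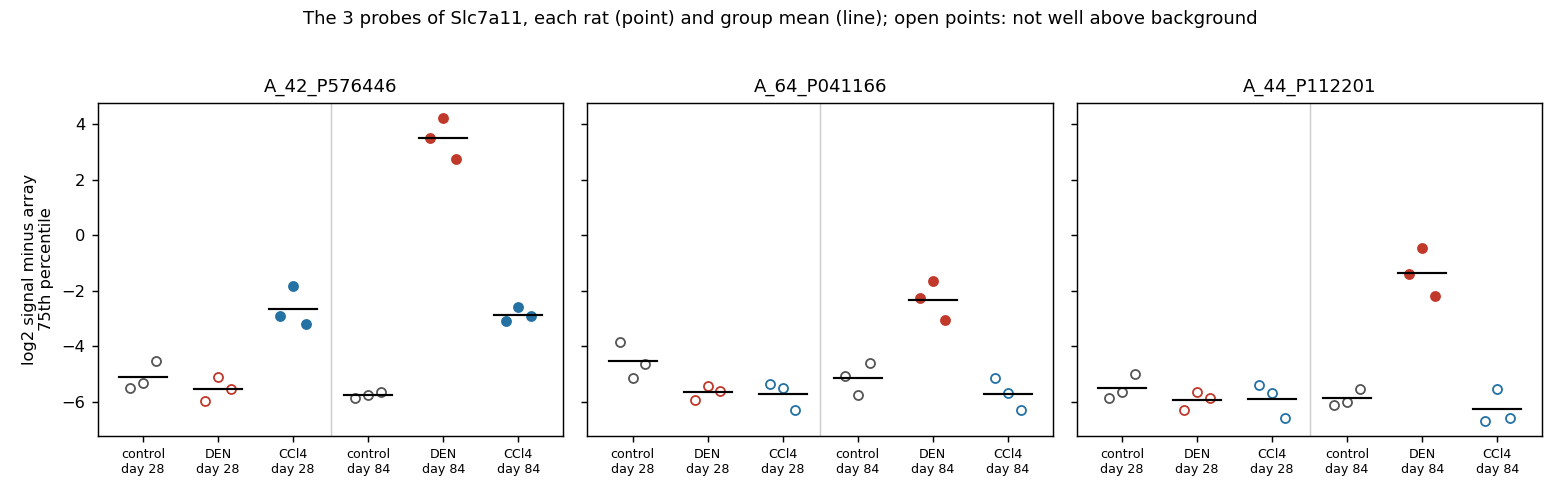
Log2 signal (y axis) of the 3 Slc7a11 probes in each liver by group, with group means as lines and open points where the probe was not well above background. The probe used (left) is well above background in the 9 livers given CCl4 at either day or DEN for 84 days, the other two only in the 3 DEN livers of day 84.

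Gclc, the catalytic subunit of glutamate-cysteine ligase, passed the test in 1 group, DEN at day 84. Its signal at day 28 was 3.98, 4.16 and 4.07 in controls, 4.53, 4.28 and 4.22 with DEN and 4.17, 3.79 and 3.94 with CCl4. At day 84 it was 4.04, 4.19 and 4.23 in controls, 6.85, 7.40 and 6.64 with DEN and 4.29, 4.36 and 4.11 with CCl4. The 3 DEN livers of day 84 stood above all others and the remaining groups formed a chain in which each overlapped the next. That rise was 2.81 ± 0.16 (7.01-fold, limma adjusted p = 2.61e-08), and a second Gclc probe gave 3.23. DEN at day 28 gave 0.27 (95% interval -0.08 to 0.62), CCl4 gave -0.11 (-0.45 to 0.24) at day 28 and 0.10 (-0.25 to 0.44) at day 84, none of which passed the test. At day 84 CCl4 livers differed from DEN livers by -2.71 ± 0.16 (adjusted p = 1.17e-07). With scaling to the spiked-in control RNA in place of the percentile, the other 3 groups passed too, at 0.67 for DEN at day 28 (adjusted p = 0.0263), 0.69 for CCl4 at day 28, where the sign turned (adjusted p = 0.0069), and 0.64 for CCl4 at day 84 (adjusted p = 0.0158).

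Nqo1, the quinone reductase that is the standard readout of NRF2 activity, was graded across all 6 groups. Its signal at day 28 was -1.53, -2.05 and -1.63 in controls, -1.29, -1.29 and -1.04 with DEN and -0.41, -0.46 and -0.54 with CCl4. At day 84 it was -2.60, -2.17 and -2.42 in controls, 2.49, 3.12 and 1.93 with DEN and 0.16, -0.05 and -0.38 with CCl4. No neighbouring groups in this order overlapped, from day 84 controls at the bottom through day 28 controls, DEN at day 28, CCl4 at day 28 and CCl4 at day 84 to DEN at day 84.
DEN at day 84 raised Nqo1 by 4.91 ± 0.24 (30.1-fold, adjusted p = 4.41e-09) and CCl4 by 2.31 ± 0.24 (4.95-fold, adjusted p = 2.62e-06). At day 28 CCl4 raised it by 1.26 ± 0.24 (2.40-fold, adjusted p = 0.00043), and the DEN difference of 0.53 did not pass (adjusted p = 0.143) although the arrays did not overlap. The lower level in the older controls, -0.66, did not pass either (adjusted p = 0.0952). A second Nqo1 probe gave 4.76 for DEN at day 84.

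Srxn1, which reactivates over-oxidised peroxiredoxins, rose in all 4 treated groups. Day 28 signals were 2.01, 2.38 and 2.16 in controls, 3.27, 3.07 and 3.20 with DEN and 3.58, 3.86 and 3.64 with CCl4. Those of day 84 were 2.07, 2.08 and 2.46 in controls, 5.84, 6.61 and 5.38 with DEN and 3.09, 3.30 and 3.31 with CCl4. All treated livers were above all control livers, the 2 control groups overlapped, and so did DEN at day 28 with CCl4 at day 84. The rise with DEN was 0.997 ± 0.23 (adjusted p = 0.0109) at day 28 and 3.74 ± 0.23 (13.4-fold, adjusted p = 4.33e-08) at day 84. With CCl4 it was 1.51 ± 0.23 (adjusted p = 7.28e-05) and 1.03 ± 0.23 (adjusted p = 0.0012). The second Srxn1 probe showed smaller values, 0.53 (adjusted p = 0.206) for DEN at day 28 and 0.57 (adjusted p = 0.0831) for CCl4 at day 84, neither of which passed.

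Txnrd1, the cytosolic thioredoxin reductase, was the only one of the 8 that, as scaled here, moved in opposite directions with the agents. Day 28 signals were 1.57, 2.01 and 1.71 in controls, 1.34, 1.45 and 1.71 with DEN and 1.43, 1.37 and 1.52 with CCl4. Those of day 84 were 1.78, 1.77 and 1.60 in controls, 3.06, 3.56 and 2.92 with DEN and 0.67, 1.11 and 1.17 with CCl4. The DEN livers of day 84 lay above and the CCl4 livers of day 84 below every other liver, while controls and DEN and CCl4 livers of day 28 overlapped in a chain. DEN at day 84 raised Txnrd1 by 1.46 ± 0.17 (2.75-fold, limma adjusted p = 1.77e-05), and CCl4 lowered it by 1.67-fold, a difference of -0.74 ± 0.17 (adjusted p = 0.0019). The fall depended on the probe and on the scaling: the 3 other Txnrd1 probes gave -0.36, -0.22 and -0.37, none of which passed, and with spike-in scaling the difference was -0.20 (adjusted p = 0.381). At day 28 neither DEN (-0.27) nor CCl4 (-0.32, turned to 0.48 at adjusted p = 0.0302 with spike-in scaling) passed.

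Ephx1, the microsomal epoxide hydrolase, was raised early and stayed raised. Day 28 signals were 5.71, 5.86 and 5.42 in controls, 7.20, 6.99 and 7.05 with DEN and 6.76, 6.76 and 6.46 with CCl4. At day 84 they were 5.38, 5.38 and 5.44 in controls, 7.64, 7.87 and 7.47 with DEN and 6.57, 6.70 and 6.58 with CCl4. Every treated liver exceeded every control liver, and at each day every DEN liver exceeded every CCl4 liver. DEN raised Ephx1 by 1.42 ± 0.12 (2.67-fold, adjusted p = 3.66e-06) at day 28 and by 2.26 ± 0.12 (4.77-fold, adjusted p = 1.32e-08) at day 84. CCl4 raised it by 0.996 ± 0.12 (adjusted p = 1.30e-05) and 1.21 ± 0.12 (adjusted p = 2.06e-06), and the CCl4 groups of the different days overlapped. EPHX1 is also inducible through the receptors CAR and PXR, of whose other targets 6 were tested. DEN raised 1 and lowered 1 at day 28 (Ugt2b1 1.37, Cyp2b2 -1.20), beside 7.82% and 7.19% of all genes. It raised 1 and lowered 2 at day 84 (Por 0.69, Cyp3a9 -2.37, Cyp3a23-3a1 -1.73), beside 21.6% and 31.1%. CCl4 raised none and lowered 4 at day 28 (26.1% and 33.6% of all genes) and 3 at day 84 (28% and 36.3%). With spike-in scaling the CCl4 counts were 1 higher and 1 lower at day 28, and 2 higher and 1 lower at day 84.

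Me1, the cytosolic malic enzyme that makes NADPH for both glutathione reduction and fat synthesis, overlapped between neighbouring groups throughout. Day 28 signals were 4.82, 4.41 and 4.78 in controls, 4.10, 4.08 and 4.50 with DEN and 4.99, 4.78 and 4.47 with CCl4. Day 84 signals were 4.01, 4.46 and 4.08 in controls, 5.17, 5.34 and 4.40 with DEN and 4.21, 4.36 and 4.41 with CCl4. With DEN at day 84 2 livers were above all controls and the third was within their range. That difference, 0.79 ± 0.22, passed the test (limma adjusted p = 0.0088) and no longer did when only the groups compared were fitted (adjusted p = 0.0514) or with 1 of the 2 other probes (0.55, adjusted p = 0.0816). The 3 other differences were -0.44 for DEN at day 28, 0.08 for CCl4 at day 28 and 0.14 for CCl4 at day 84. Of 7 lipogenic genes tested beside Me1, 4 fell with DEN at day 84 (among them Fasn -1.30, Acaca -1.09 and Acly -0.996) and 1 rose (Elovl6, 1.69), and with spike-in scaling none was called lower and 1 higher. CCl4 lowered 6 of the 7 at day 28, among them Fasn (-2.68), Scd (-2.63) and Thrsp (-2.56), and 5 at day 84. Of all genes 31.1% fell and 21.6% rose with DEN at day 84. With CCl4 33.6% of all genes fell at day 28 and 36.3% at day 84.

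Hmox1, the inducible haem oxygenase and also a target of BACH1, had the smallest of the 8 rises with DEN at day 84 and passed the test in both groups of that day. Day 28 signals were 2.47, 2.42 and 2.71 in controls, 2.98, 2.97 and 2.79 with DEN and 2.87, 3.28 and 2.52 with CCl4. Day 84 signals were 2.45, 2.60 and 2.44 in controls, 3.06, 2.89 and 2.84 with DEN and 2.89, 2.73 and 3.00 with CCl4. All 4 treated groups overlapped each other, and so did both control groups, and the treated livers were above their controls except for the CCl4 livers of day 28. The differences were 0.38 (adjusted p = 0.105) and 0.44 (adjusted p = 0.026) for DEN at day 28 and day 84, and 0.36 (adjusted p = 0.0556) and 0.38 (adjusted p = 0.0403) for CCl4, each with an SE of 0.15. Both calls of day 84 lie near the threshold: each was lost when any of 4 single arrays was left out, for DEN control 1 or 3 or DEN 1 or 2 (adjusted p of 0.0505 to 0.0933), for CCl4 control 1 or 3 or CCl4 1 or 3 (0.0832 to 0.132). That of CCl4 was also lost with median scaling (0.26, adjusted p = 0.104). On arrays of one slide, which left only the first CCl4 liver of day 84, the CCl4 difference of that day was 0.39. The CCl4 difference of day 28 passed on arrays of one slide (0.54, adjusted p = 0.0033), with normexp (0.52, adjusted p = 0.0109) and with quantile normalization (0.46, adjusted p = 0.0288). With spike-in scaling all 4 differences passed and were larger, at 0.78 and 1.15 for DEN and 1.16 and 0.92 for CCl4 at day 28 and day 84. Macrophages are a known site of Hmox1 expression in liver. The summed signal of 10 macrophage and Kupffer cell markers (as multiples of the 75th percentile) ranged over 137 to 179 in day 28 controls, 180 to 189 with DEN and 102 to 126 with CCl4, and over 137 to 161, 97.4 to 129 and 79.6 to 119 in the same order at day 84. The sum joins genes that went opposite ways. CCl4 raised 3 of the 10 and lowered 5 at either day. Among them were Trem2 (at least 189.6-fold higher at day 84), Gpnmb (3.42 and 3.51) and Clec4f (-1.78 and -2.79). DEN raised 2 and lowered none at either day. Trem2 passed the filter only through treated groups, so its rises add no independent support. Scaled to the spike-ins, CCl4 raised 4 and lowered 3 (day 28) or raised 5 and lowered 4 (day 84). DEN then raised 5 and 6 and lowered none. The median of the 10 genes turned from -0.63 and -0.39 to 0.17 and 0.15 in the CCl4 groups. By percentile scaling, CCl4 livers had 26.1% of all genes higher and 33.6% lower (day 28), then 28% higher and 36.3% lower (day 84). DEN livers of day 28 had 7.82% higher and 7.19% lower. The part of macrophages and Kupffer cells in the Hmox1 values was not tested. Of 8 other genes of haem and iron handling, DEN at day 84 raised Slc40a1 (0.98, ferroportin) and Blvra (0.26, biliverdin reductase) and lowered 4. Among the 4 were Hpx, Ftl1 and Hp (-0.77, -0.69 and -0.68), of which Ftl1 and Hp turned above 0 with spike-in scaling. With that scaling 4 of the 8 rose and none fell. As scaled by the percentile, 21.6% of all genes rose and 31.1% fell with DEN at day 84.

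Between the days, the DEN difference grew for 7 of the 8 genes, tested as the difference of the differences from control, beside 7.64% of genes called higher and 8.41% lower in that test (16.1% in all). Its median over the 8 was 2.13, against -0.05 over all genes. Slc7a11 is in this count and median, although it passed the filter only through treated groups in which it was bright. Its growth is therefore no independent support here. The growth was 4.38 ± 0.34 for Nqo1, 2.75 ± 0.32 for Srxn1, 2.54 ± 0.23 for Gclc, 1.73 ± 0.24 for Txnrd1, 1.23 ± 0.31 for Me1 and 0.84 ± 0.17 for Ephx1, and Slc7a11, dim in 3 of the 4 groups involved, also passed. For Hmox1 it was 0.06 (95% interval -0.40 to 0.52). The CCl4 difference changed for none of the 8 (3.51% of genes called higher, 2.52% lower, 6.03% in all): the values ran from -0.48 for Srxn1 to 1.04 for Nqo1, whose unadjusted interval of 0.32 to 1.76 lay above 0 (limma adjusted p = 0.0831). Fitted on the groups compared alone, Nqo1 passed (adjusted p = 0.0486). Control livers differed between the days in none of the 8 (4.44% of genes higher, 5.32% lower, 9.77% in all), with values from -0.66 for Nqo1 to 0.08 for Gclc.

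Set directly against each other at day 84, CCl4 livers were lower than DEN livers in 7 of the 8 genes and higher in none (15.8% and 18.5% of all genes, 34.3% in either direction), with a median of -2.40 against 0.00 over all genes. The differences were -6.36 for Slc7a11, -2.71 for Gclc and Srxn1, -2.60 for Nqo1, -2.20 for Txnrd1, -1.04 for Ephx1 and -0.65 for Me1. That of Me1 (adjusted p = 0.0359, arrays overlapping) was lost when any of 5 of the 6 arrays was left out. Hmox1 differed by -0.06 (95% interval -0.38 to 0.27). At day 28 the order was mixed: Slc7a11 (at least 2.12-fold, adjusted p = 7.23e-05) and Nqo1 (0.73, adjusted p = 0.0219) were higher with CCl4 and Ephx1 (-0.42, adjusted p = 0.0122) was higher with DEN, 2 higher and 1 lower beside 20.4% and 24.7% of genes (45.1% in all). These calls depended on settings. That of Nqo1 was lost when any of 4 of the 6 arrays was left out (adjusted p of 0.0556 to 0.0633) and with normexp (0.44, adjusted p = 0.066). That of Slc7a11 was lost with normexp (adjusted p = 0.132) and was not seen with its 2 other probes, dim in both groups. The offset of 50 used with normexp shrinks differences between low signals. That of Ephx1 was lost with slide as a block (-0.32, adjusted p = 0.0591), the third CCl4 array of day 28 being on another slide, on arrays of one slide (adjusted p = 0.0511), with quantile normalization (-0.28, adjusted p = 0.108) and with spike-in scaling (-0.02, adjusted p = 0.931). Without the first DEN liver of day 28 only Slc7a11 was called. Slc7a11 passed the filter only through groups in which it was bright, so its differences are no independent support in these counts. As the doses and vehicles differ, these values compare the treatments as given.

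Among the DEN livers of day 84 the second had the highest signal in 7 of the 8 genes and the third the lowest in all 8, with Hmox1 as the exception to the first count. The same livers took the same order on the second principal component of all genes (53.6, 46.5 and 39.9 for livers 2, 1 and 3). Over all 18 livers the pairs that ran most closely together were Nqo1 with Slc7a11 and with Srxn1 (Pearson r = 0.96 each) and Slc7a11 with Srxn1 (0.95). The lowest was Hmox1 with Txnrd1 (0.04). These coefficients are descriptions, since the 18 points fall into 6 groups and the dim Slc7a11 values have no order.

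The transcript of NRF2 itself, Nfe2l2, was called higher in 3 of the 4 treated groups. Its signal averaged 3.57 in day 28 controls, 4.84 with DEN and 4.89 with CCl4, and 4.34, 4.38 and 4.97 at day 84. It rose at day 28 with DEN (1.27, adjusted p = 4.8e-05) and with CCl4 (1.32, adjusted p = 3.4e-06), and at day 84 with CCl4 (0.63, adjusted p = 0.0011), and DEN at day 84 gave 0.04 (adjusted p = 0.84). With spike-in scaling Nfe2l2 passed with DEN at day 84 too (0.75, adjusted p = 0.00125), beside 1.67 with DEN at day 28. The DEN difference in Nfe2l2 was 1.23 smaller at day 84 than at day 28 (-1.23 ± 0.19, limma adjusted p = 0.00135), the control means being 3.57 and 4.34. Of the 9 regulators tested (Nfe2l2, Keap1, Bach1, Cul3, Sqstm1, Nfe2l1 and the small MAFs), 2 rose and 2 fell with DEN at day 84, against 1 and 3 at day 28, and CCl4 raised 4 and lowered 5 at day 28 and raised 3 and lowered 4 at day 84. With spike-in scaling all 9 rose with DEN at day 84, and 2 rose and none fell with DEN at day 28. With CCl4 5 rose and 1 fell at day 28, and 5 rose and none fell at day 84. Spike-in scaling called 7832 of all 10914 genes with DEN at day 84, 96.4% of them higher. As scaled by the percentile, the list's medians were -0.13 and 0.04 with DEN at day 28 and day 84, and -0.34 and -0.14 with CCl4. With that scaling 21.6% of all genes rose and 31.1% fell with DEN at day 84, and 7.82% and 7.19% at day 28. The shares with CCl4 were 26.1% and 33.6% at day 28, and 28% and 36.3% at day 84. Maff, a small MAF, was dim in all controls and was at least 4.71-fold higher with DEN and at least 1.71-fold higher with CCl4 at day 84. Maff passed the filter only through the treated groups of day 84, so its rises are no independent support in the counts of regulators. Bach1, the repressor, fell with CCl4 (-1.41 at day 28 and -0.74 at day 84) and with DEN at day 28 (-0.71), and gave 0.15 (adjusted p = 0.38) with DEN at day 84. With spike-in scaling the fall remained called for CCl4 at day 28 (-0.61, adjusted p = 0.00239) but not for CCl4 at day 84 (-0.20) or DEN at day 28 (-0.30), and DEN at day 84 gave a rise (0.86, adjusted p = 0.000263). Keap1 fell with CCl4 by -0.49 and -0.43, values that turned above 0 with spike-in scaling, and gave -0.19 and -0.12 with DEN, which did not pass.

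In the glutathione cycle, 14 genes beside Gclc and Slc7a11 were tested. DEN raised 6 and lowered 4 at day 84, and raised 2 and lowered none at day 28. CCl4 raised 7 and lowered 4 at day 28 and raised 5 and lowered 4 at day 84. With spike-in scaling 9 rose and 1 fell with DEN at day 84, 4 and none at day 28, and with CCl4 11 and 1 at day 28 and 8 and 3 at day 84. The medians lay between -0.15 and 0.26 as scaled by the percentile, beside -0.10 to -0.04 over all genes. With that scaling 21.6% of all genes rose and 31.1% fell with DEN at day 84, and 7.82% and 7.19% at day 28. The shares with CCl4 were 26.1% and 33.6% at day 28, and 28% and 36.3% at day 84. Gpx2, the glutathione peroxidase of epithelia, rose in every treated group, by 2.18 and 6.72 with DEN and 5.38 and 5.75 with CCl4. Gss, the enzyme of the second synthesis step, rose with DEN at day 84 (1.16) and with CCl4 (0.92 and 0.90), and Gsr, which regenerates reduced glutathione, rose with DEN at day 84 (1.23), its other values being -0.08 for DEN at day 28 and 0.14 (0.94 and called with spike-in scaling) and -0.13 for CCl4. Ggt1, which cleaves extracellular glutathione and marks altered foci, rose by 5.76 with DEN at day 84, where 1 of 3 control livers was well above background. Ggt1 passed the filter only through treated groups, so its rises are no independent support in these counts. Cbs, Gpx1 and Oplah fell with DEN at day 84 (-1.19, -0.91 and -0.88), and Gpx1, Cbs and Ggct fell with CCl4 at day 28 (-1.23, -1.16 and -1.02).

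NADPH is the reductant of both Txnrd1 and Gsr. Of 3 NADPH-linked enzymes reported beside Me1, DEN at day 84 raised Taldo1 (1.07) and Tkt (0.61), both of the pentose phosphate pathway, and lowered Idh1 (-0.35, above 0 with spike-in scaling). DEN at day 28 called none of the 3, with 0.09 for Taldo1 and -0.26 for Tkt. CCl4 raised none and lowered 2 (Tkt -0.46 and Idh1 -0.42, both above 0 with spike-in scaling) at day 28 and 1 at day 84. Among 12 thioredoxin, peroxiredoxin, dismutase and catalase genes, DEN at day 84 raised 3 (Prdx6 0.39, Prdx2 0.30 and Txn1 0.26) and lowered 4, and CCl4 raised none and lowered 9 at day 28 and 7 at day 84, with Cat at -1.42 and -1.33. With spike-in scaling DEN at day 84 instead raised 7 of these and lowered none. CCl4 then raised 8 and lowered 1 at day 28 and raised 5 and lowered 2 at day 84. As scaled by the percentile, 21.6% of all genes rose and 31.1% fell with DEN at day 84. The shares with CCl4 were 26.1% and 33.6% at day 28, and 28% and 36.3% at day 84.

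Other detoxification genes known as NRF2 targets, 18 in number, rose in 12 cases and fell in none with DEN at day 84 (21.6% and 31.1% over all genes), with a median of 1.21. Akr1b8 (7.29), Abcc3 (4.75) and Gstp1 (4.71), an aldo-keto reductase, a conjugate exporter and the placental glutathione transferase, had the largest values. With DEN at day 28 5 rose and 1 fell (7.82% and 7.19% over all genes), led by Aldh1a1 (3.58), Akr7a3 (1.44) and Gstp1 (0.84). With CCl4 8 were higher and 6 lower at day 28 (26.1% and 33.6% over all genes) and 9 higher and 6 lower at day 84 (28% and 36.3%), or 12 and 3, and 11 and 2, with spike-in scaling. Aldh1a1 (2.87), Abcc3 (2.73) and Osgin1 (2.41) rose at day 28, while Abcc2 (-1.71), Gsta2 (-1.57) and Gsta5 (-1.39) fell. Probes of near-identical copies in the Gsta, Gstm, Akr and Cyp families may share signal. Set directly against each other at day 84, CCl4 livers were lower than DEN livers in 15 of the 18 and higher in none. Over all genes 15.8% were lower and 18.5% higher. Slc7a11 is also a known target of ATF4. Of 8 other genes of the ATF4 list, which includes Atf4 itself, DEN at day 84 raised 4 (among them Phgdh 4.56, Psat1 3.12 and Asns 2.10). It lowered 2, Atf4 and Sesn2, both above 0 with spike-in scaling, and at day 28 it raised 1 and lowered 2. CCl4 raised 6 and lowered 2 at day 28 (Phgdh 5.05, Atf3 4.49, Asns 1.74) and raised 4 and lowered 2 at day 84. With spike-in scaling DEN raised 4 at day 28 and 6 at day 84 and lowered none. CCl4 then raised 6 and lowered 1 at each day. The shares over all genes are those given above for the other NRF2 targets.

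**Figure D4:**
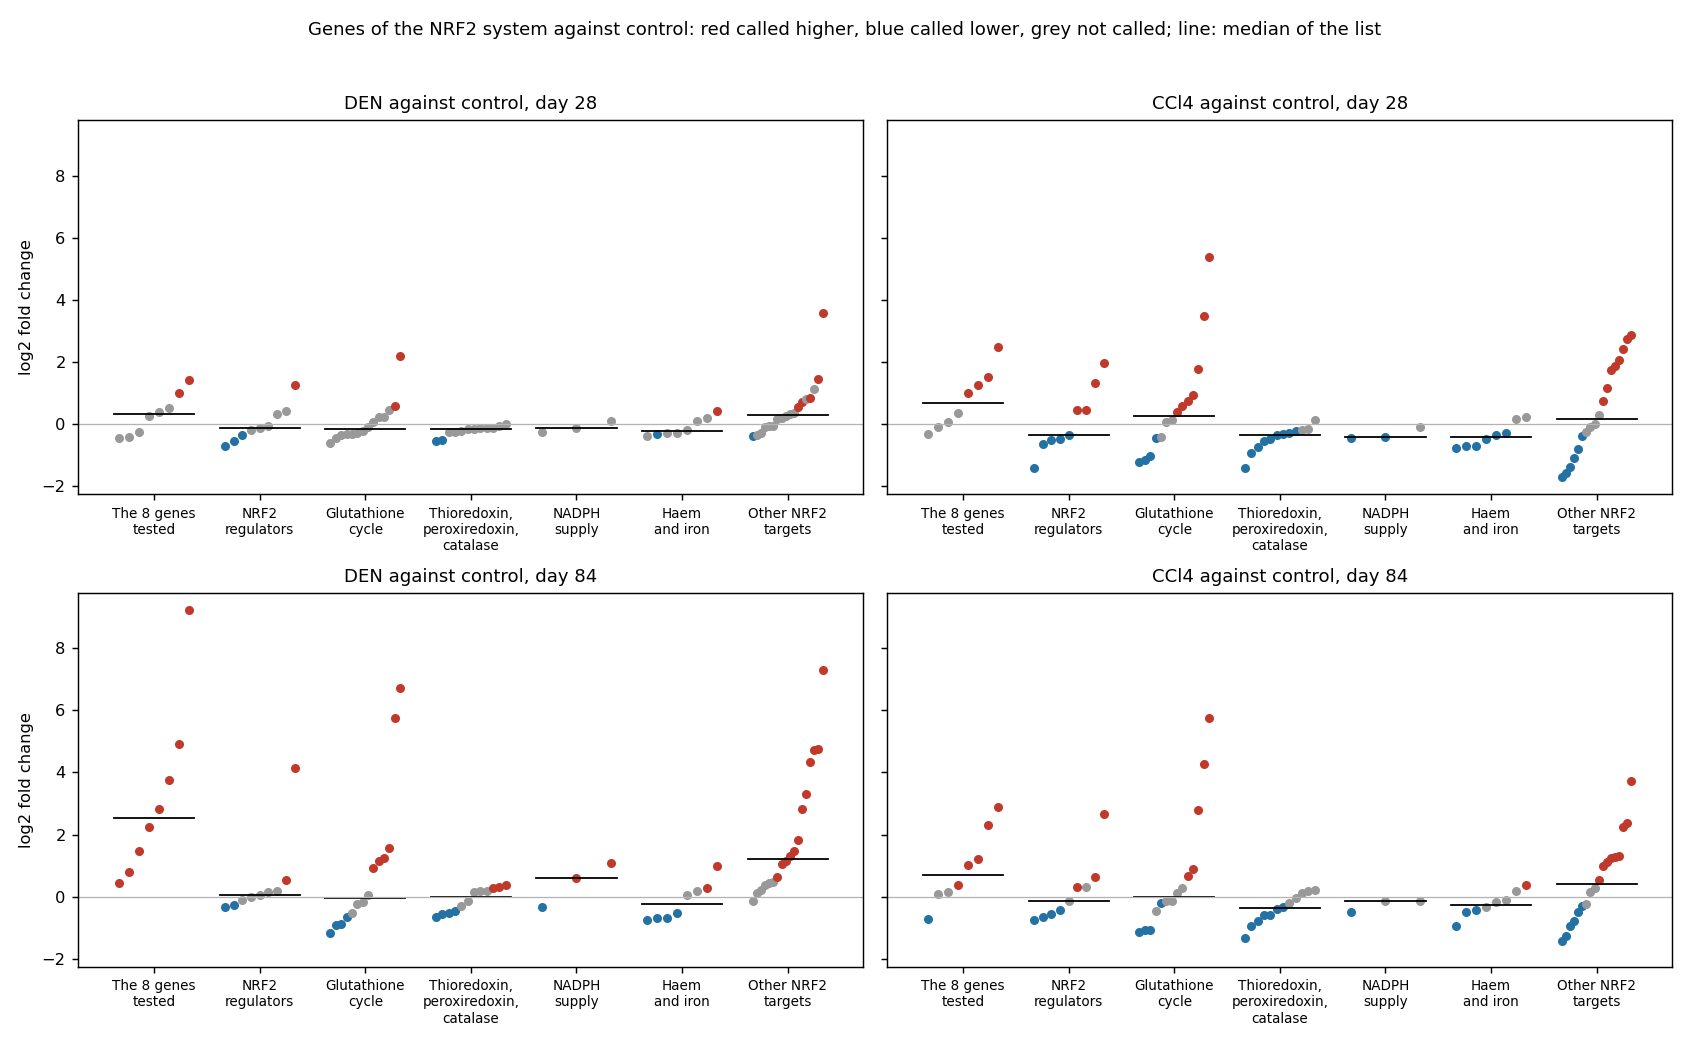
Log2 fold change against control (y axis) of every tested gene of the 8 and of 6 related gene lists (x axis), in the 4 treated groups; red points were called higher, blue lower, grey neither, and lines are medians of the lists. The median of the 8 genes is 2.53 with DEN at day 84 and 0.32 to 0.70 in the other groups, and that of the other NRF2 targets is 1.21 with DEN at day 84.

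The summed level of cell type markers moved with the groups, and its part in the values above was not tested. In the same multiples of the 75th percentile, the 6 hepatocyte markers had medians of 3536, 2954 and 2070 in controls, DEN and CCl4 at day 28. At day 84 they were 3037, 2012 and 2011, so that DEN and CCl4 livers had nearly the same median. These falls depended on the scaling. The median log2 difference of the 6 genes from control at day 84 was -0.63 with DEN and -0.60 with CCl4. With spike-in scaling it was 0.08 and -0.06, and with quantile normalization -0.16 and -0.13. At day 28 it was -0.30 with DEN and -0.99 with CCl4, or 0.10 and -0.19 with spike-in scaling. Ductular markers (5 of 6 tested) ranged over 2.03 to 2.38, 5.51 to 9.76 and 8.88 to 11.2 in controls, DEN and CCl4 at day 84. Stellate cell markers (6 of 6) ranged over 17.4 to 21.2, 27.6 to 32.9 and 89.4 to 146, and lymphocyte markers (5 of 6) over 1.61 to 2.07, 1.83 to 2.32 and 3.60 to 3.92. At day 84 each of these 3 lists had its highest median with CCl4.

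For each gene the 3 others with the most similar signal over the 18 livers (Pearson r, given as a description) were sought. The search covered the genes tested except those whose symbol begins with LOC or RGD. Those nearest to Gclc were Ptgr1 (0.99), Dnaaf1 (0.99) and Aldh3a1 (0.98), of which Ptgr1 had DEN and CCl4 values of 2.82 and -0.24 at day 84. Slc7a11 was nearest to Akr1b8 (0.98), Ccdc92 (0.97) and Gstp1 (0.97). Ccdc92 was also among the 3 nearest to Nqo1 (0.97, with Car2 and Dyrk3 at 0.98) and to Srxn1 (0.98, with Slc35e3 at 0.98 and Akr7a3 at 0.97). Ephx1 was nearest to Cdh13 (0.98), Pmm1 (0.97) and Zmat3 (0.96). Txnrd1 was nearest to Ugdh (0.96), Akr1c13 (0.94) and Nefl (0.94). Hmox1 (Cyrib and Rap1b, 0.87 and 0.86) and Me1 (Ascc1, Aqp8 and Usp5, 0.88 to 0.79) had no neighbour above 0.9 among the genes searched.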

How the data were processed

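The deposited files are scanner outputs of 18 one-colour Agilent arrays, made with Feature Extraction 10.7.1.1 per the submitters' processing notes, whose processed signal is a background-subtracted intensity per spot, and 1 table of the authors' processed values. Those deposited values are a linear ratio to a constant of each array: on every array 100% of probes differ by no more than 0.01 log2 from the processed signal scaled this way. The table served as an alternative.

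Control spots (1439 of 62976) and 18 probes flagged as outliers were left out, and no probe of the genes reported was saturated. Of 61537 probes, 28206 were matched through their RefSeq identifier to 1 gene of the RefSeq table (GRCr8). Values are log2 of the processed signal minus the 75th percentile of the array. Probes were kept if at least 1 group had them well above background on each of its 3 arrays. Per gene the kept probe with the highest mean was used, and the tests ran on the resulting 10914 genes. One limma 3.58.1 fit (R 4.3.3) held all 6 groups with no covariate, with 12 residual degrees of freedom (14.06 with the moderated prior), and eBayes contrasts were adjusted by Benjamini-Hochberg over all genes at a threshold of 0.05. The number of arrays, 3 per group, limits the precision. The labels number the replicates but do not say that a number marks a litter or a day. Same-numbered arrays mostly did not deviate together (6 of 45 correlations above 0.1, range -0.23 to 0.43), so the groups were treated as unpaired. The exception was CCl4 at day 28 with DEN at day 84, at 0.11, 0.43 and 0.34 for replicates 1, 2 and 3. P-values measure the spread between these rats. The code was tested on simulated data.

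All 9 members and their values are reported. From each related gene list, up to 3 genes called in each direction with the largest change were named per comparison, with Nfe2l2, Keap1, Bach1, Gss and Gsr always. The members and the lists were chosen with earlier results of these data known. Of 139 listed genes, 8 were not tested. A listed gene and a gene of similar signal are not reported here. Alternatives were normexp correction (offset 50), no filter (15642 genes), a filter on all arrays (9239 genes), median, quantile and spike-in scaling, the authors' table, the groups compared alone, slide or replicate number as a block, arrays of one slide, each array left out, and other probes or their mean.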

Additional observations from a re-analysis of the deposited data

Results flagged for a closer look

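For 7 genes the DEN difference from control differed between the days in a direct test of that difference (day 84 minus day 28, log2 scale, limma with Benjamini-Hochberg adjustment over all genes). It was larger at day 84 by 4.38 ± 0.34 for Nqo1 (adjusted p = 3.11e-06), 2.75 ± 0.32 for Srxn1 (adjusted p = 0.000151) and 2.54 ± 0.23 for Gclc (adjusted p = 1.64e-05). The values were 1.73 ± 0.24 for Txnrd1 (adjusted p = 0.00072), 1.23 ± 0.31 for Me1 (adjusted p = 0.0191) and 0.84 ± 0.17 for Ephx1 (adjusted p = 0.00655). Slc7a11 gave 9.67 ± 0.55 (adjusted p = 1.71e-07), a fitted value that is no estimate of size because the probe was dim in 3 of the 4 groups involved. Slc7a11 also passed the filter only through treated groups, so its call is no independent support. The call of Me1 was lost without the second DEN liver of day 84 (1.04, adjusted p = 0.0563) and with another probe (1.12, adjusted p = 0.0504). Day and slide coincide for these groups, and each difference is taken within a slide.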

How the results depend on the processing

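The counts of the 8 genes called differed from those reported by over 1.5 times in few settings. With spike-in scaling 5 were called for DEN and 8 for CCl4 at day 28, in place of 2 and 4. Fitting only the groups compared called 1 gene, Nqo1, for the change of the CCl4 difference between the days, in place of none. With single arrays left out, the counts ranged from 1 to 4 for CCl4 against DEN at day 28 (3 reported), 6 to 7 at day 84, 7 to 8 for DEN and 5 to 6 for CCl4 at day 84, 4 to 5 for CCl4 at day 28 and 6 to 7 for the change of the DEN difference. They stayed at 2 for DEN at day 28. Values that reversed were Gclc (0.69) and Txnrd1 (0.48) for CCl4 at day 28 with spike-in scaling, and Slc7a11 with its 2 other probes, -0.38 and -1.18 for CCl4 at day 28, -0.38 and -0.56 at day 84 and, with 1 of them, -0.063 for CCl4 against DEN at day 28. Those probes were not well above background in these groups; the cause was not tested. Over all results and settings, 1286 values kept direction and call, 51 lost and 28 gained the call, and 69 changed sign without a call in either setting. With the replicate number as a block the counts of genes called were 2 and 8 for DEN and 4 and 5 for CCl4 at day 28 and day 84, and the one call against control that was lost was Hmox1 with CCl4 at day 84 (0.38, adjusted p = 0.0521). The depth of signal limits Slc7a11 to bounds in controls and left Gclm untested.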
